A study of Mus musculus with 2 samples.

Results

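Replication-dependent histone genes encode the histones that package newly made DNA. They were taken here as all protein-coding genes whose GENCODE M21 symbol starts with Hist1h, Hist2h, Hist3h or Hist4h and that stand in both deposited gene tables, which gave 64 genes of 43346 Ensembl genes. They comprise 6 genes for linker histone H1, 18 for H2A, 15 for H2B, 12 for H3 and 13 for H4, with 52 in the Hist1 cluster on chromosome 13, 9 in Hist2 on chromosome 3, 2 in Hist3 on chromosome 11 and 1, Hist4h4, on chromosome 6. A further 3 annotated genes with such symbols, Hist1h2bm, Hist1h2bh and Hist2h2bb, were not analysed here. RNA was measured in hindbrain, the embryonic tissue that forms the medulla, pons and cerebellum, of B6NCrl mouse embryos at embryonic day 12.5. Replicate 1 was a pool of 120 embryos and replicate 2 a separate pool of 88, both of healthy male and female embryos, without any treatment or engineered allele named in the labels, and each value averages over its pool. RNA above 200 nt was extracted by the mirVana method, each library started from 10 ng with spike-in RNAs, and a SMARTer low-input kit manual is linked in the labels. Of 8 hindbrain markers 7 were detected, Hoxb2 with 47.5 and 59.7 TPM, and of 6 forebrain and midbrain markers 2 were detected, Otx2 with 12.5 and 15.8 TPM. Both libraries belong to 1 group, so each p-value compares 2 libraries and not 2 conditions, and no order of levels was tested across conditions.

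H2A, H2B, H3 and H4 form the core of the nucleosome, around which DNA is wrapped, and H1 binds the DNA between nucleosomes. The genes for these proteins are transcribed mainly in S phase, when DNA is copied. Unlike other messenger RNAs, most of their RNAs end in a conserved stem-loop in place of a poly(A) tail, which the stem-loop binding protein recognises. Hindbrain at this age holds dividing progenitors beside young neurons.

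The stem-loop is shown first because it is the feature that these RNAs have in common and that the rule for choosing the genes did not use. The pattern GGNNCTTTNNAGNNCC (N, any base; sense strand of the transcript) was found after the stop codon in 42 members. Those were 42 of the 48 members whose annotated transcript runs 50 nt or more past the stop codon, against 0.338% of 58797 protein-coding transcripts that hold the pattern anywhere (199 transcripts). A further 14 members have annotated transcripts that end within 5 nt of the stop codon, so the pattern could not be sought there. The following 30-base sites were read from the GENCODE M21 transcripts, 5′ to 3′, with the stem-loop in capitals.
Hist1h2ap: aaaaaaaaaaaGGCTCTTTTCAGAGCCatc
Hist1h2ao: aaaaaaaaaGGCTCTTTTCAGAGCCatcca
Hist1h1e: caacccaaaGGCTCTTTTCAGAGCCaccca
Hist1h2ae: aaaaacaaaGGCTCTTTTCAGAGCCattca
Hist3h2ba: caacccaaaGGCTCTTTTCAGAGCCacctt
Hist1h3d: gaccccaaaGGCTCTTTTCAGAGCCacccc
Hist1h4d: aaaaccaaaGGCCCTTTTCAGGGCCactac
Hist2h4: atccctaacGGCCCTTTTTAGGGCCaacca
The stem-loop began 21 to 58 nt after the stop codon, with a median of 31.5 nt. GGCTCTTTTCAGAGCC was the form in 24 members and occurred in H1, H2A, H2B and H3 genes. All 11 H4 members with the pattern had another stem, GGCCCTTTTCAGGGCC in 7, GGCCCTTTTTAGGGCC in 2 and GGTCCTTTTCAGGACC in 2.

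RefSeq promoters (GRCm38.p6, 250 bases before to 50 after the start) were matched for 58 members by position. CCAAT, sought on both strands, was present in 84.5% of them against 37.4% of 32851 promoters, and TATAAA in 58.6% against 13.6%. CCAAT was present in every matched H1, H2A, H2B and H3 promoter but in 3 of 12 H4 promoters. ATTTGCAT, the octamer known from H2B promoters, was present in 19.0% against 1.74% (7 H2A and 4 H2B genes). Promoter windows of neighbouring H2A and H2B genes that face away from each other can overlap, so the same site can count for both genes. This was so for the octamer of Hist1h2ah and Hist1h2bk, of Hist1h2ae and Hist1h2bg, and of Hist1h2aa and Hist1h2ba. The windows behind these shares are thus not independent. The bases upstream of both annotated starts are shown for the members highest among H2A and H4, with CCAAT or TATAAA on either strand in capitals, Hist1h2ap at chr13:21833508-21833725 on the minus strand and Hist1h4d at chr13:23581318-23581567 on the plus strand.
Hist1h2ap: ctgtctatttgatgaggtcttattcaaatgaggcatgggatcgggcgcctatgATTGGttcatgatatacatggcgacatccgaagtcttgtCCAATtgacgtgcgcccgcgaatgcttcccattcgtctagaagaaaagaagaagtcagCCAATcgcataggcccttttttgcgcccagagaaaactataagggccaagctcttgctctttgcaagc
Hist1h4d: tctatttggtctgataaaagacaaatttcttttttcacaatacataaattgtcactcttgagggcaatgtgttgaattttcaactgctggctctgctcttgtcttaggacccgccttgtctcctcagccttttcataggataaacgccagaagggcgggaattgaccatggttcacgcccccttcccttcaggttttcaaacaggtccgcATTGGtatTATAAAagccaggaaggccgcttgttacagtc
A match is a description of letters and not a site at which a factor was measured.

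Levels are in TPM, a length-normalised abundance with a fixed total per library. Genes of different length can be compared in it as far as their annotated lengths hold. The length in the deposited tables equals that of M21 in 44 of the 64 members. Summed over the 64 members, the level was 4054 TPM in replicate 1 and 3212 TPM in replicate 2 (3633 ± 595, SD, n = 2). The H2A genes held 80.3% of this sum. The sum for H2A was 3262 and 2571 TPM, for H4 293 and 230, for H2B 223 and 203, for H3 201 and 140, and for H1 74.7 and 68.5 TPM in replicates 1 and 2. The order of the types was the same in both libraries. In bulk RNA, fewer cells in S phase and less RNA per cell cannot be told apart. Whether the RNAs of all members, most of them without a poly(A) tail, were captured equally was not tested. The shares by type are thus shares of the RNA measured.

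A single gene set the H2A sum. Hist1h2ap (chr13:21833026-21833507, minus strand) had 2813 and 2224 TPM, which was 69.3% ± 0.104 (SD, n = 2) of the level of all members and 86.4% of that of H2A. Without it the H2A sum was 449 and 347 TPM and still the highest of the types in both libraries, and the sum of all members was 1241 and 988 TPM. This gene and Hist1h2ao (chr13:21810465-21810944, plus strand) are near-copies on opposite strands. Their annotated transcripts of 482 and 480 nt are identical over 452 nt, Hist1h2ap with 30 nt more at its 5′ end and Hist1h2ao with 28 nt more at its 3′ end. The 300-base promoter windows of the 2 genes share an identical run of 200 bases. Yet Hist1h2ao had 4.97 and 0 TPM. Of the 100-nt windows of the Hist1h2ap transcript, 92.2% also occur in a transcript of another gene, and 30 windows do not. The division of fragments between the 2 copies thus rests on their annotated ends, and how far the true levels of the 2 genes differ was not tested. Both transcripts carry a run of 12 A just before the stem-loop, seen in part in the sites above.

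**Figure D1:**
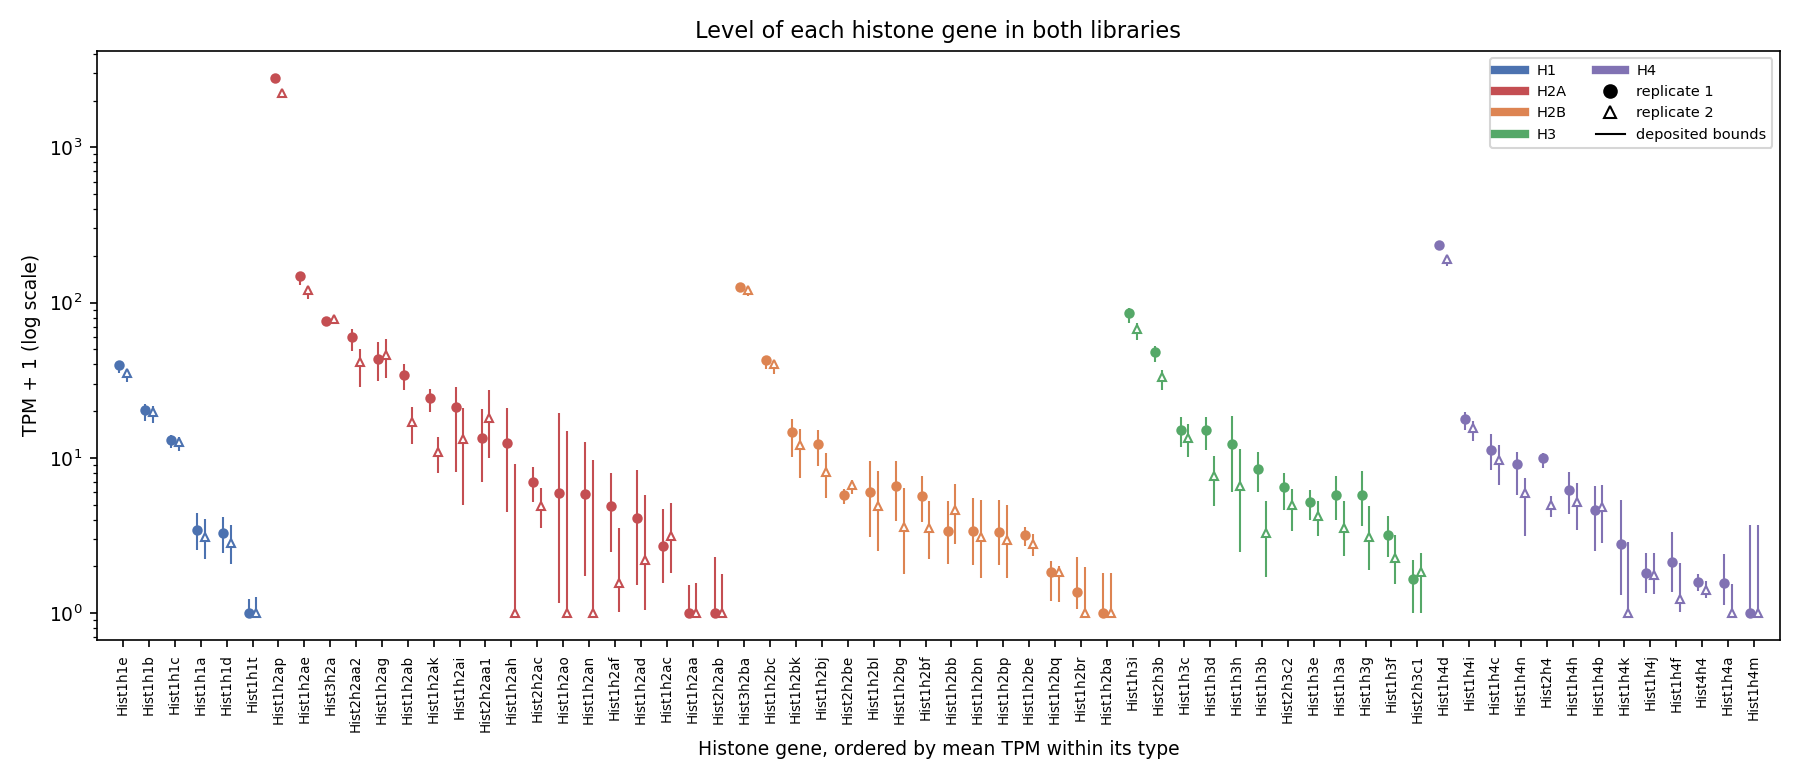
TPM + 1 on a log axis for each of the 64 members, grouped by histone type and ordered by mean TPM, with circles for replicate 1, triangles for replicate 2 and lines for the deposited credibility bounds. Hist1h2ap stands at 2813 and 2224 TPM, above all other members, and the bounds of many members at low level span most of their value.

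Of the 64 members, 47 were detected, that is, had 1 TPM or more in both libraries, and 19 had 10 TPM or more in both. Among the other H2A genes, Hist1h2ae had 147 and 120 TPM, Hist3h2a 75.2 and 77.9, and Hist2h2aa2 59.2 and 40.7. Hist2h2aa2 lies wholly within the sequence of Hist2h2aa1 (12.4 and 17.0 TPM), and all of its 100-nt windows are shared, so the sum of both, 71.6 and 57.7 TPM, is given beside the single values. The 9 H2A genes that encode 1 shared protein, Hist1h2ap among them, summed to 3071 and 2421 TPM. Hist1h2ag had 42.5 and 45.1 TPM, Hist1h2ai 20.3 and 12.3, and the lowest of the detected H2A genes were Hist1h2ac and Hist1h2ad. An annotated H2A pseudogene that is no member, Hist1h2aj, had 5.22 and 14.0 TPM, higher in replicate 2, with bounds from near 0 to 21.2 TPM in replicate 1 and to 18.7 TPM in replicate 2.

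H2B was led by Hist3h2ba with 126 and 120 TPM, 57.9% of its type. It was followed by Hist1h2bc with 41.6 and 39.3 TPM, Hist1h2bk with 13.7 and 11.0, and Hist1h2bj with 11.2 and 7.14. Hist3h2ba shares 4.85% of its windows with other genes and had narrow bounds, 116 to 129 TPM in replicate 1 and 110 to 124 TPM in replicate 2. Of the H2B genes in lower ranks, Hist1h2bl had 4.99 and 3.92 TPM, Hist1h2bf 4.69 and 2.54, Hist1h2bb 2.39 and 3.61, Hist1h2bn 2.39 and 2.08, Hist1h2bp 2.31 and 1.96, and Hist1h2be 2.17 and 1.80.

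The 12 H3 genes encode 2 proteins. Hist1h3a, Hist1h3g, Hist1h3h and Hist1h3i, which encode the form known as H3.1, summed to 106 and 77.1 TPM, and the other 8, which encode H3.2, to 95.5 and 62.6 TPM. Hist1h3i was the highest with 84.8 and 66.8 TPM, then Hist2h3b with 47.3 and 32.0, Hist1h3c with 14.2 and 12.5, and Hist1h3d with 14.0 and 6.62. The forms thus differed by less than either form differed between the libraries.

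All 13 H4 genes encode 1 protein, and Hist1h4d alone, with 235 and 189 TPM, held 81.1% of the H4 level. Hist1h4i followed with 16.8 and 14.5 TPM, then Hist1h4c with 10.3 and 8.62 and Hist1h4n with 8.15 and 4.97. The annotated transcript of Hist1h4d in M21 is 1138 nt long against 393 nt in the deposited tables. Its TPM thus rests on the shorter length, and its shared sequence could not be judged from M21. Its bounds were 216 to 241 TPM in replicate 1 and 171 to 194 TPM in replicate 2.

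The 6 H1 genes each encode their own protein. Hist1h1e had 38.6 and 34.1 TPM, Hist1h1b 19.2 and 18.7, Hist1h1c 12.1 and 11.7, Hist1h1a 2.43 and 2.11, and Hist1h1d 2.27 and 1.83. Hist1h1t, the H1 of male germ cells, had 0 in both. The H1 genes kept the same order in both libraries, and of the 5 at 1 TPM or more none was called between them.

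Members at 0 in both libraries were Hist1h1t, Hist1h2aa, Hist1h2ba, Hist1h4m and Hist2h2ab, where a count of 0 allows from 0.251 to 0.602 TPM (3 counts, counting error only). Hist1h2aa and Hist1h2ba, known from testis, face away from each other at the far end of the cluster. The germ cell markers listed beside them (Ddx4, Prm1, Sycp3, Dazl and Tnp1) were detected in 0 of 5 cases. Hist1h4m shares 366 nt with Hist1h4n, and its upper bound was 2.69 and 2.71 TPM. A further 6 members had counts in replicate 1 and 0 in replicate 2, namely Hist1h2ah with 11.4 TPM in replicate 1, Hist1h2ao with 4.97, Hist1h2an with 4.84, Hist1h4k with 1.80, Hist1h4a with 0.56 and Hist1h2br with 0.36. The remaining 6 below the limit of detection were Hist1h4j (0.81 and 0.77 TPM), Hist1h2bq (0.84 and 0.83), Hist1h2af (3.93 and 0.57), Hist1h4f (1.13 and 0.24), Hist2h3c1 (0.65 and 0.84) and Hist4h4 (0.59 and 0.41).

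By locus, Hist1 held 91.0% of the members' level (3708 and 2906 TPM), Hist3 5.57% (201 and 198), Hist2 3.47% (145 and 108) and Hist4 0.0137%. The 2 Hist3 genes, Hist3h2a and Hist3h2ba, thus had a mean sum of 200 TPM ± 2.00 (SD, n = 2). In Hist2, Hist2h2ac had 6.02 and 3.92 TPM, Hist2h2be 4.77 and 5.65, Hist2h3c2 5.49 and 3.95, and Hist2h4 8.92 and 4.00. Hist1 spans 2.22 Mb and falls into 4 groups where a gap above 100 kb separates neighbours. The 17 members from Hist1h2bl to Hist1h2br summed to 3004 and 2352 TPM, or 190 and 128 without Hist1h2ap. The 28 from Hist1h4h to Hist1h1a summed to 608 and 476, and the 5 from Hist1h2ah to Hist1h2bj to 95.7 and 77.8 TPM. Apart from Hist1h2ap, most of the Hist1 level thus came from the group of 28, of which 24 were detected.

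**Figure D2:**
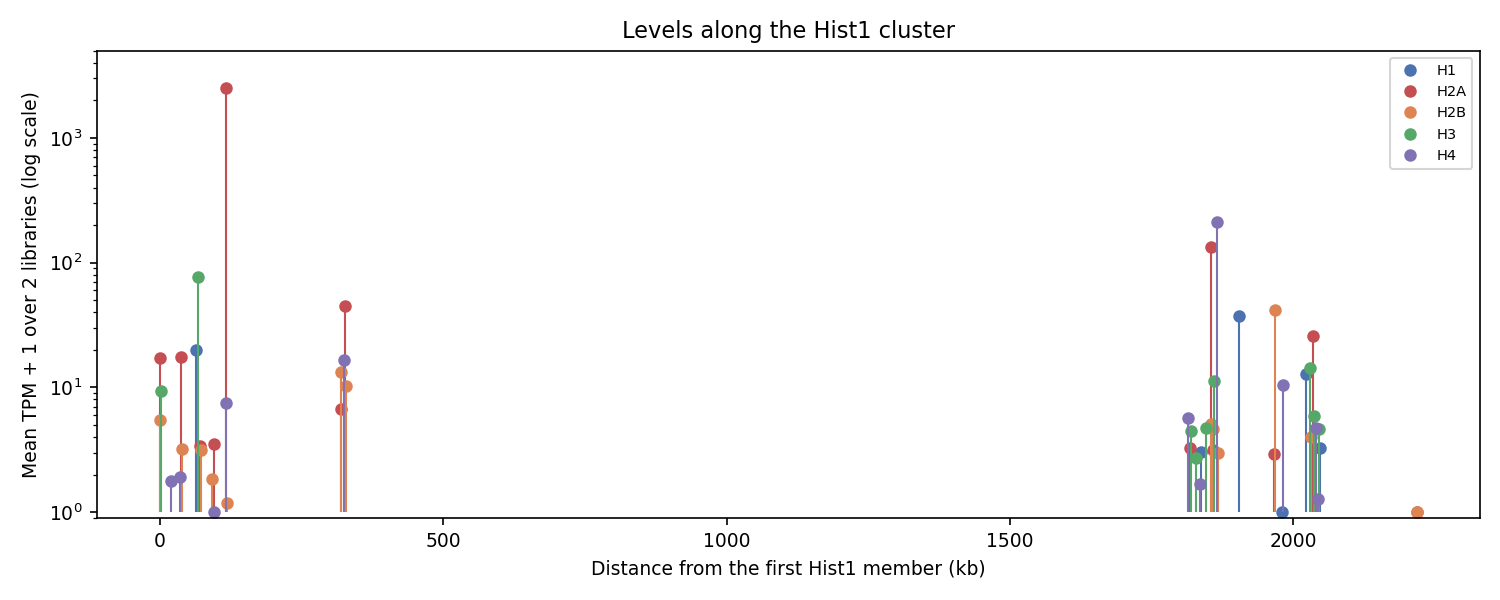
Mean TPM + 1 over 2 libraries (log axis) against the distance of each Hist1 member from the first in kb, coloured by histone type. The genes fall into 4 groups, and Hist1h2ap in the first of them exceeds every other member.

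Many H2A and H2B genes lie side by side and are transcribed away from each other from a shared region. There were 12 such pairs, with 176 to 306 nt between the annotated starts. H2A was higher in both libraries in 5 pairs, H2B in 3, and the other 4 were at 0 in both genes or differed in direction between the libraries. Hist1h2ap had 2813 and 2224 TPM beside 0.36 and 0 for Hist1h2br. In M21, Hist1h2br shares 99.8% of its windows with Hist1h2bq, so their single values depend on how shared fragments were divided. The same holds for Hist1h2ap and Hist1h2ao. Hist1h2br and Hist1h2bq together summed to 1.20 and 0.83 TPM. Hist1h2ae had 147 and 120 TPM beside 5.59 and 2.58 for Hist1h2bg. The reverse was seen for Hist1h2ac with 1.71 and 2.15 TPM beside 41.6 and 39.3 for Hist1h2bc.

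**Figure D3:**
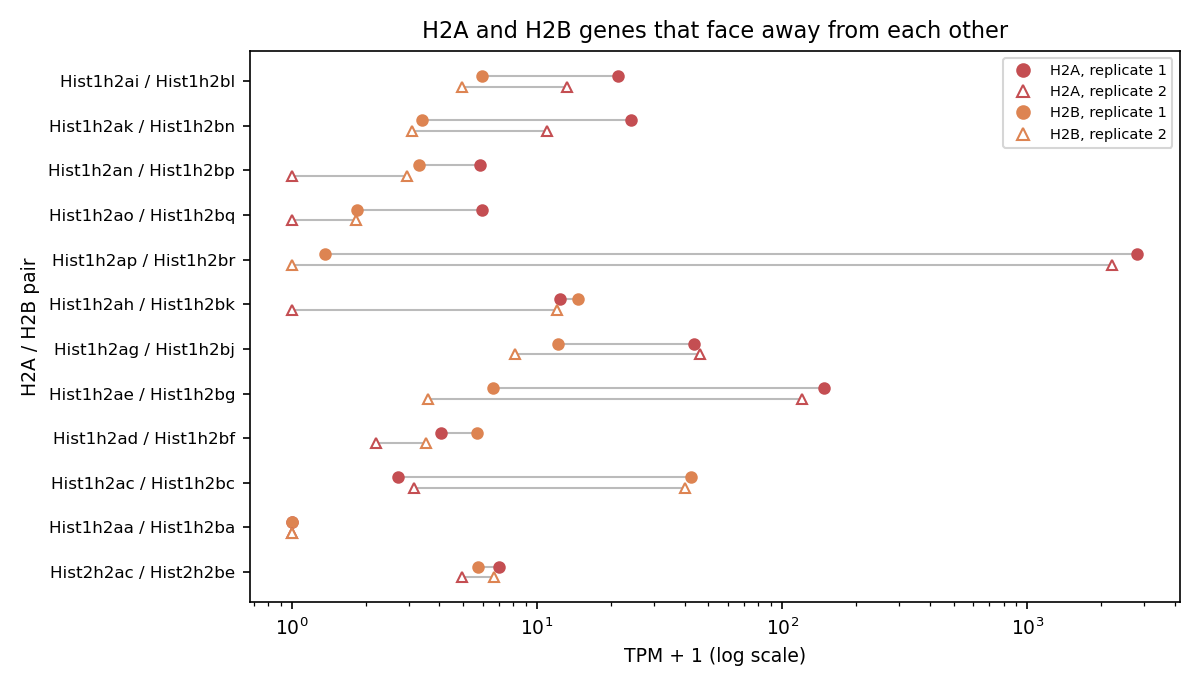
TPM + 1 (log axis) of the H2A and H2B gene of each of the 12 pairs, joined by a line, with circles for replicate 1 and triangles for replicate 2. The lines are long for Hist1h2ap with Hist1h2br, for Hist1h2ae with Hist1h2bg and, in the other direction, for Hist1h2ac with Hist1h2bc.

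Most histone genes had lower values in replicate 2. Of the 51 members at a mean of 1 TPM or more, 44 (86.3%) were lower in replicate 2, against 45.2% of 13757 protein-coding genes at that level. Their median log2 ratio of (TPM + 1), replicate 2 over replicate 1, was -0.32, against 0.016 for those protein-coding genes. A two-sided exact binomial test on rounded expected counts, adjusted by Benjamini-Hochberg over 19209 genes, called 18 of the 55 members with enough counts, all 18 lower. Over all genes tested, 9.68% were called lower and 10.7% higher. That test allows for counting error only. The edgeR exact test with a common dispersion called 9 members, all lower, where 0.625% of all genes were called lower and 0.942% higher.

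By type, the binomial test called 10 H2A, 5 H3, 2 H4, 1 H2B and 0 H1 members (1 H1 member, Hist1h1e, at an unadjusted p under 0.05 in the binomial test and 0 in the edgeR test). Hist1h2ap fell from 20440 to 14904 expected counts, which the binomial test called (adjusted p = 1.5e-113) and the edgeR exact test did not (adjusted p = 0.79). Hist1h4d went from 235 to 189 TPM, with an adjusted p of 1.1e-06 in the exact binomial test and 0.94 in the edgeR exact test. Both tests called Hist2h4, with 8.92 and 4.00 TPM and an adjusted p of 0.00032 in the edgeR exact test. They also both called Hist1h2ab (33.4 and 16.1 TPM), Hist1h2ak (23.2 and 9.96), Hist1h3d (14.0 and 6.62), Hist1h3b (7.50 and 2.26), Hist1h2af (3.93 and 0.57), Hist1h2ah, Hist1h2an and Hist1h2ao. Of these 9 members called by both tests, Hist1h2af, Hist1h2ah, Hist1h2an and Hist1h2ao (4 of 9) had bounds that overlapped between the libraries. The last 3 were at 0 in replicate 2. By counting error only, the floor of 3 counts would put Hist1h2ah at least 20.4-fold lower, but 89.5% of its windows are shared. Its bounds were 3.46 to 19.9 TPM in replicate 1, with an upper bound of 8.10 TPM in replicate 2, so a far smaller difference remains possible. Among members with a mean TPM of at least 1, a TPM ratio of 2 or more was also seen for Hist1h2bg (5.59 and 2.58 TPM), Hist1h3g (4.78 and 2.09) and Hist1h2ad (3.07 and 1.20). Hist3h2a, Hist3h2ba, Hist1h2bc, Hist1h1b and Hist1h1c were not called by either test, with log2 ratios of (TPM + 1) of 0.050, -0.064, -0.082, -0.037 and -0.044.

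**Figure D4:**
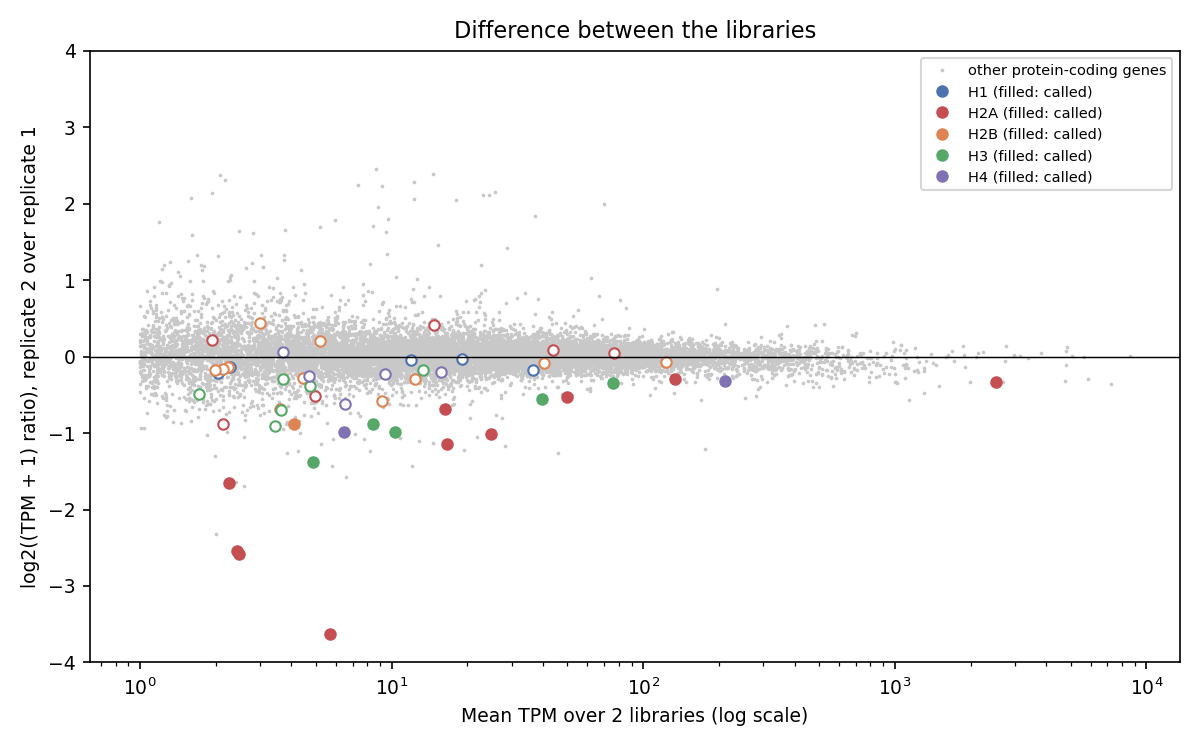
log2 ratio of (TPM + 1), replicate 2 over replicate 1, against mean TPM (log axis) for the 51 members at 1 TPM or more and, in grey, other protein-coding genes. Filled members, all below 0, were called by the exact binomial test, and 44 of the 51 lie below 0.

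Several measures differed between the libraries beside this. Among members of 600 nt or shorter in the tables, 30 of 35 were lower in replicate 2 (median log2 ratio -0.53), and among the longer 14 of 16 (-0.18). Other protein-coding genes of 600 nt or shorter at 1 TPM or more were lower in 73.7% of 247 cases (median -0.15), and longer ones in 44.5% of 13459 (0.018). At 1 to 5 TPM the other short genes were lower in 50% of 52 cases (0.00016), and the short members in 13 of 16 (-0.60). At 5 TPM or more these values were 80% of 195 (-0.16) and 17 of 19 (-0.53). AATAAA in the last 50 nt was looked at in members at 1 TPM or more whose transcript has the same length in M21 and the tables. The 5 with it had a median of -0.044 (from -0.99 to 0.20) and the 29 without it -0.53 (from -3.63 to 0.42). All 5 are longer than 600 nt, so this split overlaps with the split by length. Of the blood markers, Hbb-y went from 8149 to 6362 TPM, Hba-x from 1701 to 1299 and Alas2 from 41.4 to 36.3. Summed skeletal muscle markers (Actc1, Acta1, Myog and Tnnc2) went from 45.8 to 205 TPM. Summed hindbrain markers went from 151 to 189 TPM. Of these 8, 5 were called higher by the exact binomial test, against 10.7% of all genes, and 0 by the edgeR exact test. The share of TPM in spike-ins went from 8.39% to 10.9%. The part of each of these in the lower histone level was not tested.

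Of the 17 genes of the S phase list, 12 also had lower TPM in replicate 2. All 17 were detected, with a median of 73.3 TPM in replicate 1 and 73.6 in replicate 2. The exact binomial test called 8 of them lower (47.1%, against 9.68% of all genes and 32.7% of the histone genes tested) and 1 higher, and the edgeR exact test 0, with 0 also at an unadjusted p under 0.05. In the edgeR exact test the same held for the lists of histone RNA processing, decay and chaperones. The S phase list had a median log2 ratio of scaled counts of -0.071, against -0.35 for the 55 members tested, and the difference between the lists was not tested. E2f1, a transcription factor of S phase genes, had 25.1 and 20.2 TPM, and Tyms, the thymidylate synthase, 122 and 109. Rrm2, a subunit of ribonucleotide reductase, had 166 and 173 TPM, and Mcm7, Mcm6 and Pcna had 146 and 145, 146 and 141, and 145 and 139 TPM.

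Of the 11 genes for histone transcription and RNA 3′ end formation, all were detected. Slbp, the stem-loop binding protein, had 156 and 151 TPM, and Npat, the coactivator of histone genes, 13.2 and 16.6. Of this list the exact binomial test called 1 lower and 2 higher. The histone decay list had all 8 members detected, with 1 lower and 4 higher, and the chaperones all 11, with 1 lower and 1 higher. Over all genes, that test called 9.68% lower and 10.7% higher. Nasp, a chaperone of H3 and H4, had 152 and 148 TPM.

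Replacement variants, made also outside S phase and mostly from polyadenylated RNA, had higher TPM than the clustered genes for H3. Whether RNAs with and without a poly(A) tail were captured equally was not tested. H3f3a and H3f3b, both for H3.3, had 2625 and 2890, and 1778 and 1966 TPM, a sum of 4629 ± 320 against 170 ± 43.4 TPM for the 12 H3 members (SD, n = 2). H2afz and H2afv summed to 1988 and 1821 TPM, H1f0 and H1fx to 422 and 441 TPM beside 74.7 and 68.5 TPM for the 6 H1 members, and H2afx had 238 and 222. The other members of this list were H2afy, H2afy2 and Cenpa, with 401 and 401, 277 and 309, and 161 and 144 TPM. Of these 10 variants 4 were called lower and 4 higher by the exact binomial test, against 9.68% and 10.7% of all genes. The edgeR exact test called 0 of them, also at an unadjusted p under 0.05.

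The deposited bounds were wider for histone genes than for protein-coding genes of like TPM, which were not matched for length. Of the 51 members at 1 TPM or more, 35 are 600 nt or shorter. Among other protein-coding genes at that level, 247 are that short and 13459 are longer. At equal TPM a shorter transcript holds fewer counts, and the part of length in the width was not tested. The relative width, upper minus lower bound over the posterior mean TPM, had a median of 0.941 and 1.24 in replicates 1 and 2 for members at 1 to 5 TPM, against 0.480 and 0.487 for protein-coding genes. At 5 to 20 TPM it was 0.545 and 0.692 against 0.217 and 0.225, at 20 to 100 TPM 0.232 and 0.274 against 0.124 and 0.128, and at 100 TPM or more 0.109 and 0.122 against 0.0660 and 0.0692. The bounds of the 2 libraries did not overlap in 10 of the 51 members at 1 TPM or more (19.6%), against 15.0% of protein-coding genes.

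Members with more shared sequence tended to have wider bounds. Among 34 members at 1 TPM or more whose transcript has the same length in M21 and the tables, the rank correlation of relative width with the percent of shared windows was 0.44 in both libraries, given as a description since these genes share sequence and depth. Length went with sharing, since members at 70% or more have 393 to 586 nt and most of those under 20% are longer than 600 nt. The part of length and counts in the width was not tested. Median width was 0.256 and 0.292 in the 8 members under 20% shared, and 1.10 and 1.03 in the 14 at 70% or more. Their median levels were 14.5 and 10.8, and 11.9 and 8.33 TPM. Hist1h2ap was an exception, 92.2% shared with a relative width of 0.0303 and 0.0361. Its TPM lay above its upper bound in both libraries (2813 against 2765 and 2224 against 2185), and it was the single member for which this held. Hist1h2ao, its near-copy, had a width of 2.26 and 3.33.

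**Figure D5:**
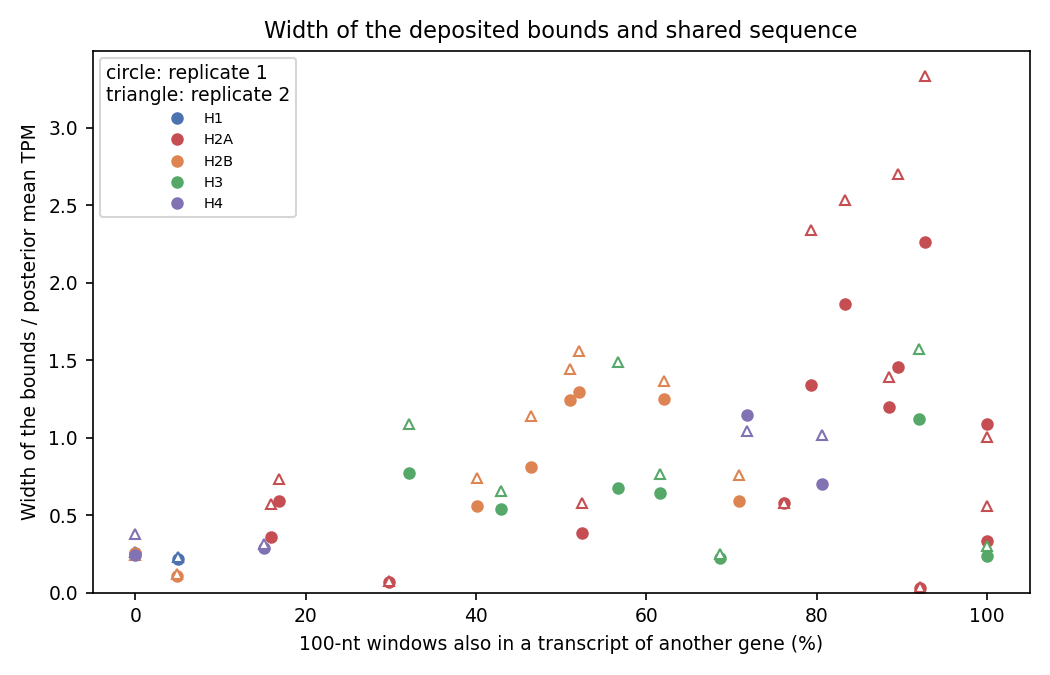
Relative width of the deposited bounds against the percent of 100-nt windows that also occur in a transcript of another gene, for 34 members, with circles for replicate 1 and triangles for replicate 2. Members under 20% shared had median widths of 0.256 and 0.292, and Hist1h2ap lies near 0 at 92.2%.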

How the data were processed

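Expected counts, TPM, FPKM and posterior mean TPM with credibility bounds per gene were deposited for 2 libraries. Expected counts, as deposited, are estimates per gene in which a fragment matching several genes is divided. The deposited TPM and FPKM are, per the file headers, scaled by length and library. The deposited bounds are treated as a signal, and their level is not stated. The share of each transcript within its gene was deposited as a percent. Assembly mm10 and annotation M4 come from the deposited notes. For the aligner, quantifier and strandedness, nothing is given in the sources used here. Values of overlapping genes are therefore uncertain.

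Replicates 1 and 2 held 31633169 and 29766460 expected counts. Counts were rounded, genes with 10 or more summed counts were scaled by TMM (edgeR 4.0.16, R 4.3.3) and tested by the exact binomial test (two-sided) with Benjamini-Hochberg adjustment at 0.05. The edgeR exact test, whose common dispersion of 0.00814 came from the same libraries, and DESeq2 1.42.0 size factors were alternatives. Tests were checked on simulated data. A pseudocount of 1 TPM was used for ratios. Floors of 3 counts cover counting error only. The deposited bounds can reach far above such a floor, as for Hist1h2ao in replicate 2 (upper bound 13.8 TPM, floor 0.450 TPM). Neither covers variation between libraries. Names, transcripts and coordinates came from GENCODE M21, whose transcript length equals that of the tables in 44 members, and promoters from RefSeq (GRCm38.p6).

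The members and lists were chosen with earlier results of these data known. The boundaries of 600 nt, 100 kb, 20% and 70%, the sums without Hist1h2ap and the sums over identical proteins were chosen after seeing the data. Named members are the 4 highest of each type, every H1 gene, those outside Hist1, those at 0 in a library and those at a TPM ratio of 2 or more. From the lists of other genes, the highest and some lowest are named. A few genes under this rule are left out of the text.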

Additional observations from a re-analysis of the deposited data

How the results depend on the processing

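The sums by type and locus kept their order under posterior mean TPM, under TPM rescaled to Ensembl genes (types alone), and without either replicate. Rescaling raised the mean sum of H1 to 79.2 TPM and of H2B to 235 TPM, and the posterior mean put Hist3 at 194 TPM. Without Hist1h2ap the mean sum of H2A was 398 TPM and of Hist1 788 TPM. At 5 TPM in place of 1 TPM, 24 members were detected. The edgeR exact test called 9 members in place of 18, while total counts, DESeq2 size factors and a minimum of 1 summed count each called 18 and a minimum of 50 summed counts 15, all lower in replicate 2. The median absolute log2 ratio of 0.34 was 0.29 when genes of identical protein were summed. The median relative width was 0.382 over members at 5 TPM or more, against 0.682. Of the alternative values, 52 stayed within the replicate spread or 1.5 times, 7 moved and 1 was weaker. A sum or width with 1 of 2 libraries left out always lies within that spread. Shares by FPKM equal those by TPM within a library apart from rounding. The outcome of both kinds was set in advance, and they are no check of robustness. No paired analysis was possible because both libraries belong to 1 group. With 2 libraries, depth limits members near 1 TPM.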
